A study of Homo sapiens with 4 samples.

Results

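Autophagy encloses cytoplasmic material in a double membrane, the autophagosome, and delivers it to the lysosome for breakdown. The ULK1 kinase complex starts the process, a class III phosphatidylinositol 3-kinase (PI3K) complex marks the growing membrane with the lipid PI3P, lipid-transfer proteins feed it, and a pair of linked conjugation reactions attach ATG8 proteins (LC3 and GABARAP) to it. Receptors such as p62 bind ubiquitin-marked cargo and ATG8 at once, and many cancer cells draw on the pathway when nutrients or drugs stress them. The set described here is the 38 genes that encode this core machinery and its main receptors, found by symbol among the 20263 human Ensembl gene IDs of the count table. All 38 had 1 row each, and all 38 passed the filter on low counts that left 13667 genes.

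The cells were MDA-MB-231, an established human triple-negative breast cancer line grown in DMEM with 10% fetal bovine serum and antibiotics. They were treated for 24 h with Rib_CA, which the series title calls a derivative of the CDK4/6 inhibitor ribociclib, or served as controls labelled DMSO, the solvent, with 2 libraries per group. The dose of Rib_CA is not given in the sources used here. Nor do the labels say whether the 2 libraries of a group came from separate cultures, and the p-values given here speak of the spread between libraries alone, which may be technical.

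The libraries held 34774542 to 38865103 counts. Of the markers chosen for the line, VIM lay at 3587 to 4221 CPM and AXL at 1356 to 1929 CPM, where CPM is counts per 1000000 after scaling of the libraries by edgeR's TMM method. ESR1, PGR and CDH1, which this line lacks, lay at 0 to 1.76 CPM, with PGR (adjusted p = 0.0962) and ESR1 (not tested) lower in both Rib_CA libraries. Of 4 markers of other cell types, the T cell marker CD3E had no count, the leukocyte marker PTPRC lay at 0.395 to 0.634 CPM in DMSO and 0.0465 to 0.153 CPM in Rib_CA (edgeR adjusted p = 0.143), and the endothelial marker PECAM1 at 0.587 to 1.18 CPM over all libraries. The fibroblast marker COL1A1 lay at 7.53 and 8.05 CPM in DMSO and 5.72 and 4.09 CPM in Rib_CA (edgeR adjusted p = 0.289). The part of such low-level signal in the results was not tested. The DMSO libraries differed from each other in their share of mitochondrially encoded transcripts (8.68% and 21.7%), and both lay above the Rib_CA libraries (5.78% and 3.13%). TAX1BP1, ATG2B and WDFY3, the members called lower, also passed in edgeR with the mitochondrially encoded genes left out.

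Levels differed widely within the pathway. Per length of the longest annotated transcript, in TMM-scaled CPM per kilobase (FPKM), SQSTM1, which encodes the receptor p62, was the most abundant member in both groups, at 270 ± 99.7 in DMSO and 414 ± 111 in Rib_CA (SD, n = 2). In DMSO it was followed by NBR1, a receptor related to p62, at 41.9 ± 10.4, TAX1BP1, another ubiquitin-binding receptor, at 37.7 ± 0.942, GABARAP at 37.3 ± 3.60 and the conjugation enzyme gene ATG3 at 35.8 ± 1.41. These 4 levels lay within 1 SD of NBR1 from each other, so their order is not beyond the spread of the libraries. At the low end lay ATG10, which encodes the E2-like enzyme of the ATG12 conjugation, at 0.965 ± 0.0338, and MAP1LC3A, an LC3 gene, at 0.904 ± 0.0861. In Rib_CA the order after SQSTM1 was MAP1LC3B (47.4 ± 7.23), GABARAP (46.4 ± 9.14), the receptor gene OPTN (42.8 ± 11.5) and NBR1 (41.5 ± 10.4), which again lay within 1 SD of each other. TAX1BP1 moved from rank 3 of 38 to rank 22, and MAP1LC3B from rank 10 to rank 2. The longest transcript may not be the one these cells use, so order between genes is approximate.

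**Figure D1:**
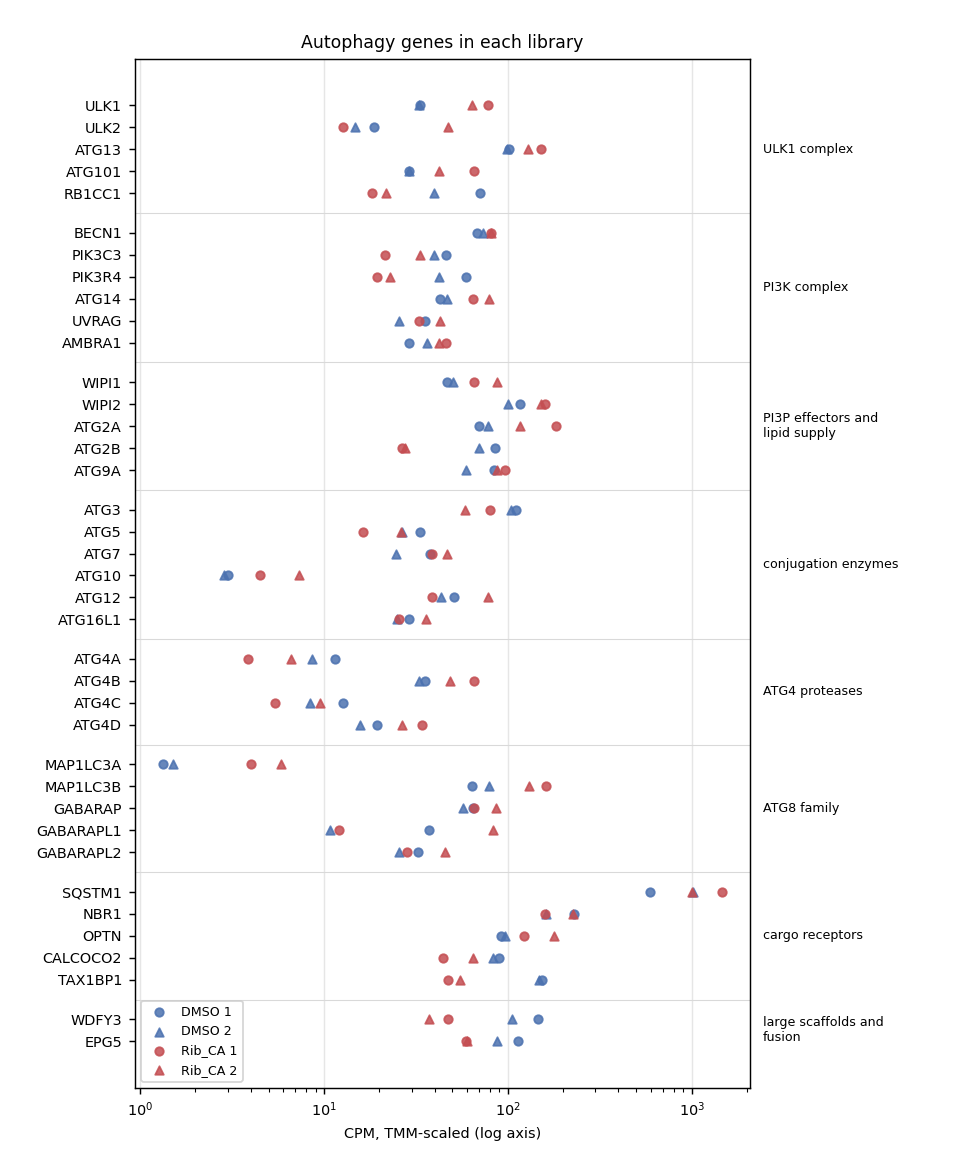
Level of each of the 38 autophagy genes in each library, in TMM-scaled CPM on a log axis, grouped by role (DMSO blue, Rib_CA red; circles are replicate 1 and triangles replicate 2). TAX1BP1, ATG2B and WDFY3 show both Rib_CA points far below both DMSO points, while GABARAPL1 spreads from 10.8 to 82.8 CPM with the groups interleaved.

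Rib_CA-treated cells held less mRNA of 3 members: TAX1BP1 (2.95-fold lower), ATG2B, a lipid-transfer protein (2.87-fold lower), and WDFY3, a very large scaffold that brings aggregates to autophagosomes (2.98-fold lower). No member was called higher, where 2.01% of all genes were. With edgeR's quasi-likelihood test, 3 of 38 members passed at an adjusted p under 0.05 (7.89%), beside 7.13% of all genes tested. All 3 were lower, and 5.11% of all genes were called lower. The share of members called is near that of all genes. Over all 38 members, called or not, 25 fold changes lay above 0 and 13 below, with a median log2 fold change of 0.35, where the median of all genes was 0.03 and 51.91% were above 0. The members' median was 0.21 without DMSO 2 and 0.099 without Rib_CA 2, and 0.55 with total-count scaling. Both Rib_CA libraries lay beyond both DMSO libraries for 29 members, 18 upward and 11 downward (76.3%), beside 58.8% of all genes, 30.4% upward and 28.4% downward. An unadjusted p under 0.05 was found for 15 members (39.5%), beside 28.4% of all genes.

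The count of members called varied with the setting, and is given here beside the share of all genes called. DESeq2 called 9 members (23.7%), 4 higher and 5 lower, beside 17.9% of the genes to which it gave an adjusted p, 7.23% higher and 10.6% lower. In edgeR the members called were 0 without DMSO 1 (1.23% of all genes), 2 without DMSO 2 (2.91%), 11 without Rib_CA 1 (20.5%) and 13 without Rib_CA 2 (19.8%). They were 2 with total-count scaling (4.30%), 3 with a replicate block (6.93%), 3 with limma-voom (6.45%), 5 with DESeq2's size factors (7.69%) and 5 without mitochondrially encoded genes (8.28%). Without a filter on low counts 7 of 38 were called (8.18%), with a floor of 5 CPM in 2 libraries 6 of 36 (11.2%), and with a crossed pairing of the replicates 8 (14.6%). No gene was called after the correction for GC content and length of transcripts (0.00%). Among these fits the members' share lay farthest above that of all genes without Rib_CA 2, at 34.2% against 19.8%.

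**Figure D2:**
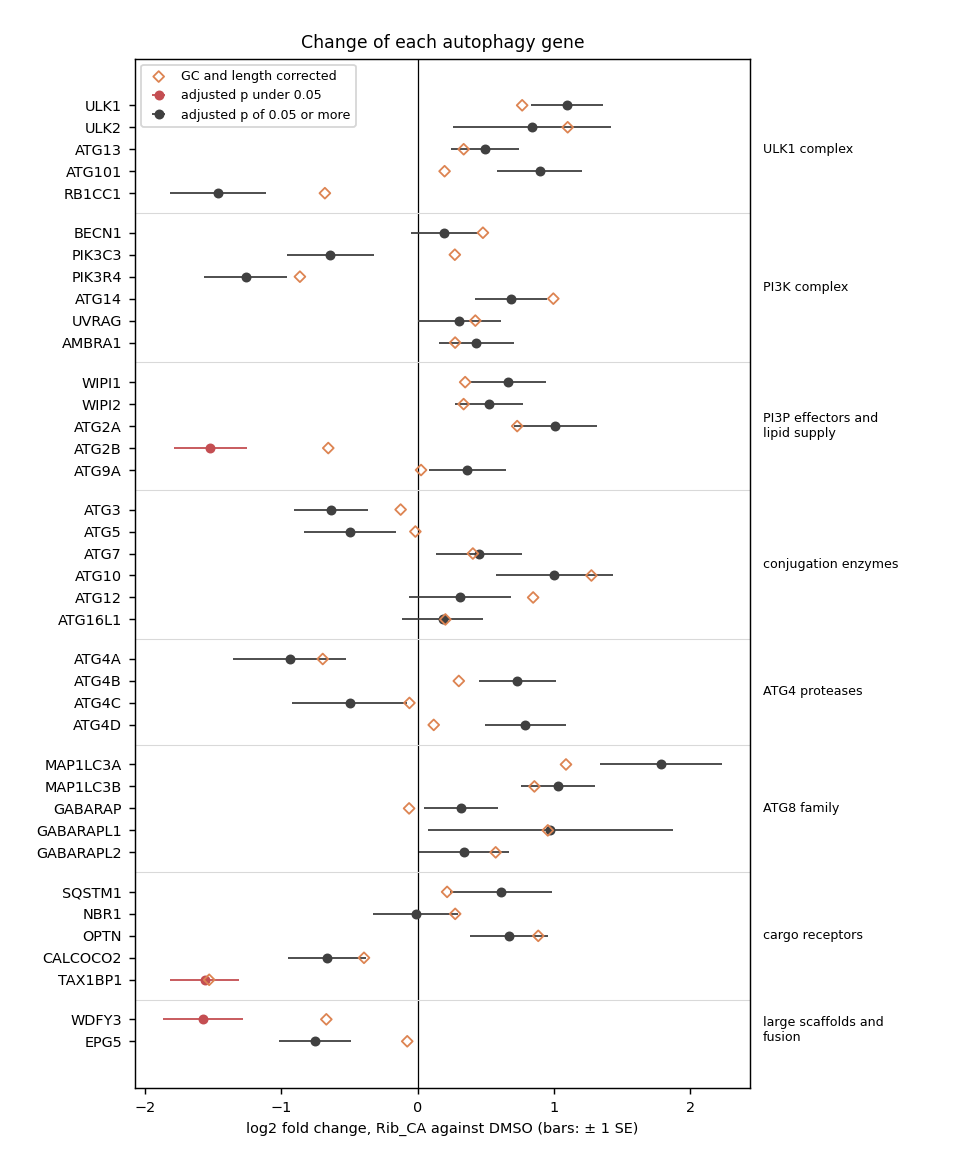
Log2 fold change of each member, Rib_CA against DMSO, with 1 SE either way. Red points passed at an adjusted p under 0.05 and open diamonds are the values after correction for transcript GC content and length. The 3 red points lie between -1.58 and -1.52, and only that of TAX1BP1 stays there after correction.

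TAX1BP1 (chr7:27739331-27844564, GRCh38) lay at 154.1 and 148.7 CPM in DMSO and at 47.3 and 55.2 CPM in Rib_CA. The groups lay far apart, with SDs of 3.79 around 151.4 CPM and 5.59 around 51.3 CPM (n = 2). The log2 fold change was -1.56 ± 0.25 (SE; edgeR adjusted p = 0.0287). ATG2B (chr14:96279202-96363870) lay at 85.04 and 69.69 CPM in DMSO and at 26.4 and 27.5 CPM in Rib_CA. Its log2 fold change was -1.52 ± 0.27 (edgeR adjusted p = 0.0298), and the 2 Rib_CA libraries were close together. WDFY3 (chr4:84669610-84966391) lay at 146.3 and 106.1 CPM in DMSO and at 47.1 and 37.5 CPM in Rib_CA, with a log2 fold change of -1.58 ± 0.29 (edgeR adjusted p = 0.0330). These bulk values cannot tell a lower level in each cell from a loss in part of the cells. The calls needed the DMSO libraries: without DMSO 1 none of the 3 passed (adjusted p = 0.104 for TAX1BP1, 0.181 for ATG2B and 0.190 for WDFY3), and without DMSO 2 TAX1BP1 (0.0760) and ATG2B (0.0717) did not pass either. The differences themselves stayed large with 1 library left out, with log2 fold changes from -1.679 to -1.496 for TAX1BP1, from -1.66 to -1.38 for ATG2B and from -1.79 to -1.33 for WDFY3. With libraries scaled by total counts alone, which raised the median of all genes by 0.20 on the log2 scale, TAX1BP1 stayed called (log2 fold change -1.36; adjusted p = 0.0467), while ATG2B (log2 fold change -1.33; adjusted p = 0.0601) and WDFY3 (log2 fold change -1.40; adjusted p = 0.0531), with differences of similar size, did not. That scaling called MAP1LC3B higher instead, and 44.2% of all calls were higher against 28.2% with TMM.

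The members' changes ran with the base composition and the length of their transcripts, as those of all genes did. Across the 38 members, the log2 fold change and the GC content of the longest transcript had a Pearson r of 0.62 and a Spearman rho of 0.64, and with the log2 of transcript length r was -0.51. Across all 13651 genes with a transcript, r was 0.43 with GC content and -0.33 with length. These are correlations across genes that share the same 4 libraries, and genes are not independent replicates. All 9 members of at least 55% GC had a fold change above 0, with a median log2 value of 0.79, where 75.5% of all such genes lay above 0. Of the 16 members under 45% GC, 5 lay above 0 (median -0.57), where 28.8% of all such genes did.

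When each library was corrected for these transcript properties, the 3 called genes parted. TAX1BP1 (48.03% GC, 4020 bases), near the median of all genes in both (48.47% and 3646 bases), kept its size, at 2.89-fold lower against 2.95-fold before. ATG2B (44.22% GC, 13684 bases) went from 2.87-fold to 1.58-fold lower, and WDFY3 (43.87% GC, 14247 bases) from 2.98-fold to 1.59-fold lower. None of the 38 members, and none of the 13651 genes, passed edgeR's test after this correction, with 13 members and 3396 genes at an unadjusted p under 0.05. TAX1BP1, with a log2 fold change of -1.53 ± 0.21, had an edgeR adjusted p of 0.0803. No gene in that fit had a smaller one, but genes with unlike p-values can share the same adjusted value. BCL2L13, an organelle receptor gene outside the 38 members, had it too, and how many other genes did is not given here. The value thus does not place TAX1BP1 at the top of all genes. GC content and length were those of the longest annotated transcript. It may not be the one these cells use, for TAX1BP1 as for the others, so corrected values are approximate. The correction takes out any treatment difference that follows GC content or length as well, and the part of either property in the values was not tested.

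**Figure D3:**
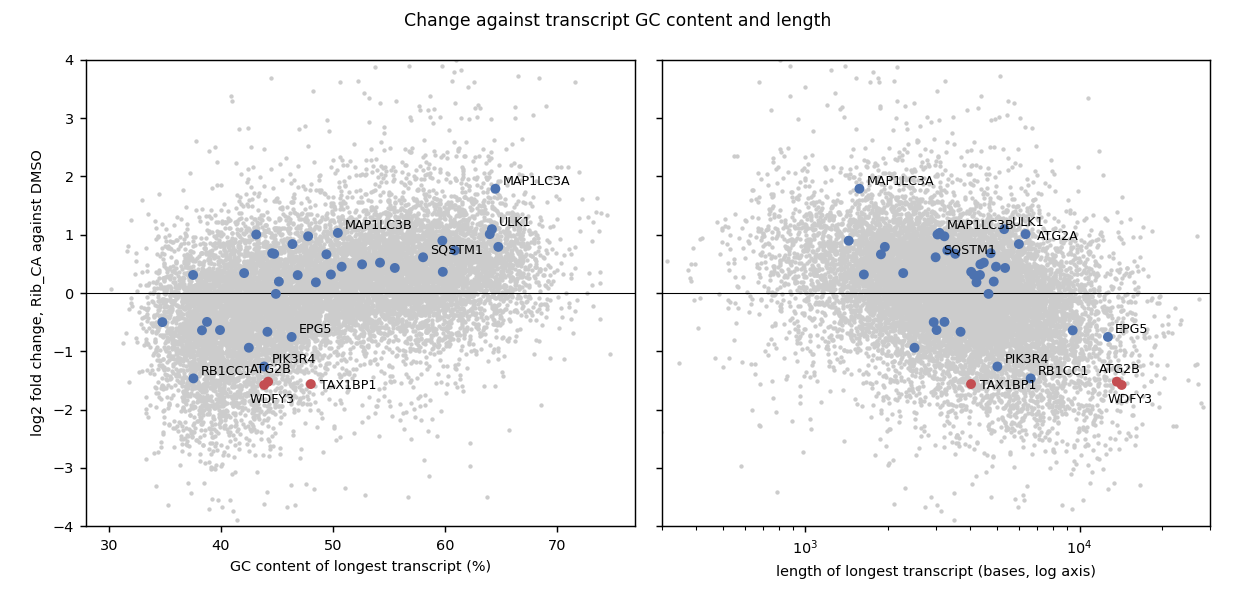
Log2 fold change (Rib_CA against DMSO) of all genes tested (grey), of autophagy genes (blue) and of those called lower (red), against the GC content (left) and, on a log axis, the length (right) of the longest transcript. Genes beyond a log2 fold change of 4 in either direction, or outside the length axis, are not drawn; ATG2B and WDFY3 sit at the long end, whereas TAX1BP1 lies mid-range on both axes.

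In the ULK1 complex, which receives the starvation signal, the kinase gene and its scaffold lay on opposite sides and no member passed. ULK1, the initiating kinase, lay at 33.5 and 32.7 CPM in DMSO and at 77.8 and 63.8 CPM in Rib_CA (log2 fold change 1.10 ± 0.27; edgeR adjusted p = 0.0568). RB1CC1, which encodes the large scaffold FIP200, lay at 70.3 and 39.9 CPM in DMSO and at 18.1 and 21.8 CPM in Rib_CA (log2 fold change -1.46 ± 0.35; edgeR adjusted p = 0.0566). For both genes the groups did not overlap, and both passed with DESeq2 (adjusted p = 0.00835 for ULK1 and 0.00170 for RB1CC1). RB1CC1 also passed when DESeq2's size factors replaced TMM in edgeR (adjusted p = 0.0492). Corrected for GC content and length it was -0.68, and with 1 library left out it ranged from -1.82 to -1.004, with a call in edgeR unless that library was DMSO 1. ATG101, a small adaptor of the complex, lay at 28.98 and 28.88 CPM in DMSO and at 65.7 and 42.1 CPM in Rib_CA. The log2 fold change of 0.90 ± 0.31 (edgeR adjusted p = 0.124) became 0.20 after correction. ATG13, the adaptor that joins the kinase to RB1CC1, had a log2 fold change of 0.49 ± 0.25. ULK2, the close relative of ULK1, had groups that overlapped: 18.6 and 14.8 CPM in DMSO stood beside 12.7 CPM in Rib_CA 1 and 47.2 CPM in Rib_CA 2, and its log2 fold change of 0.84 was -0.40 without Rib_CA 2.

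The PI3K complex also divided between its subunits, with no call in edgeR with TMM scaling. PIK3R4, which encodes the regulatory subunit VPS15, lay at 59.4 and 42.0 CPM in DMSO and at 19.3 and 23.0 CPM in Rib_CA (log2 fold change -1.26 ± 0.30, edgeR adjusted p = 0.0562). It passed with DESeq2 (adjusted p = 0.00316) and when DESeq2's size factors replaced TMM in edgeR, and was -0.86 after the GC and length correction. PIK3C3, the catalytic subunit VPS34, lay at 46.0 and 39.7 CPM against 21.5 and 33.5 CPM (log2 fold change -0.64 ± 0.32), and turned to 0.27 after the GC and length correction. ATG14, the subunit that directs the complex to autophagosome formation, was higher in both Rib_CA libraries, at 64.5 and 78.9 CPM against 42.9 and 46.5 CPM. Its log2 fold change was 0.68 ± 0.26 (edgeR adjusted p = 0.150) and 0.996 after correction. BECN1, the central Beclin 1 subunit, differed least in this complex before correction, at 68.2 and 72.9 CPM in DMSO and 80.7 and 81.1 CPM in Rib_CA. The log2 difference was 0.20 ± 0.24 (edgeR adjusted p = 0.643), and 0.48 after correction, above the corrected value of PIK3C3. UVRAG, the subunit of the endosomal form of the complex, overlapped between groups (0.31 ± 0.31), and AMBRA1, a Beclin 1 regulator, had a log2 fold change of 0.43 ± 0.27.

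Among genes that read PI3P or supply lipid, ATG2B alone passed, and its paralog ATG2A lay on the other side. Both encode bridge-like proteins that carry lipid into the growing membrane. ATG2A lay at 70.2 and 78.3 CPM in DMSO and at 183.1 and 116.0 CPM in Rib_CA (log2 fold change 1.01 ± 0.31; edgeR adjusted p = 0.0924), and it passed with DESeq2 (adjusted p = 0.0355). Within a library the ratio of their counts needs no scaling: ATG2A had 0.825 and 1.12 counts per count of ATG2B in DMSO, and 6.92 and 4.22 in Rib_CA. The mean ratio was 5.61-fold higher in Rib_CA on the log scale, well beyond the spread between replicates (log2 SDs of 0.315 in DMSO and 0.506 in Rib_CA), but 2 against 2 libraries cannot give a two-sided exact permutation p below 0.33. ATG2A has 63.99% GC and 6357 bases, against 44.22% and 13684 bases for ATG2B. After the GC and length correction the log2 fold changes were 0.73 and -0.66. The PI3P-binding genes WIPI1 (log2 fold change 0.66 ± 0.28) and WIPI2 (0.52 ± 0.25) and the vesicle scramblase gene ATG9A (0.36 ± 0.28) were higher in both Rib_CA libraries without passing. WIPI1 shares 24.3% of its exonic bases with ARSG on the opposite strand, and whether the counting used strand is not given in the sources used here.

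Of the conjugation enzymes none passed and none had an unadjusted p under 0.05. ATG5, which is joined to ATG12 to act as the E3-like enzyme for lipidation, lay at 33.2 and 26.6 CPM in DMSO and 16.3 and 26.1 CPM in Rib_CA (log2 fold change -0.50 ± 0.34; edgeR adjusted p = 0.378). ATG7, the shared E1-like enzyme, lay at 37.6 and 24.6 CPM against 38.6 and 46.5 CPM (log2 fold change 0.45 ± 0.32; edgeR adjusted p = 0.391). ATG7 overlaps VGLL4 on the opposite strand over 18.1% of its exonic bases. The separation between groups was narrow for both genes: 26.6 against 26.1 CPM for ATG5, and 37.6 against 38.6 CPM for ATG7. ATG3, the E2-like enzyme for ATG8, had a log2 fold change of -0.64 ± 0.27, which became -0.12 after correction. ATG10, whose E2-like product joins ATG12 to ATG5, had a log2 fold change of 1.003 ± 0.43 at only 2.85 to 7.27 CPM. ATG12, the ubiquitin-like tag joined to ATG5, and ATG16L1, the partner that places the pair on membrane, overlapped between groups (0.31 ± 0.37 and 0.18 ± 0.30).

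The ATG4 proteases, which trim new ATG8 proteins and cut them off membranes, split evenly. ATG4B, the main LC3 protease, lay at 35.6 and 32.7 CPM in DMSO and at 65.3 and 48.2 CPM in Rib_CA (log2 fold change 0.73 ± 0.28). ATG4D lay at 19.4 and 15.7 CPM against 34.2 and 26.6 CPM (0.79 ± 0.30; edgeR adjusted p = 0.143), and ATG4A at 11.5 and 8.65 CPM against 3.85 and 6.64 CPM (-0.94 ± 0.41). ATG4C overlapped between groups (-0.50 ± 0.42). The higher pair has 60.87% and 64.75% GC, the lower pair 42.50% and 34.79%. Corrected log2 fold changes were 0.30 for ATG4B, 0.12 for ATG4D, -0.70 for ATG4A and -0.06 for ATG4C, so the distance between the pairs was smaller. Counts of ATG4B per count of ATG4A were 3.11 and 3.78 in DMSO and 16.9 and 7.26 in Rib_CA.

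**Figure D4:**
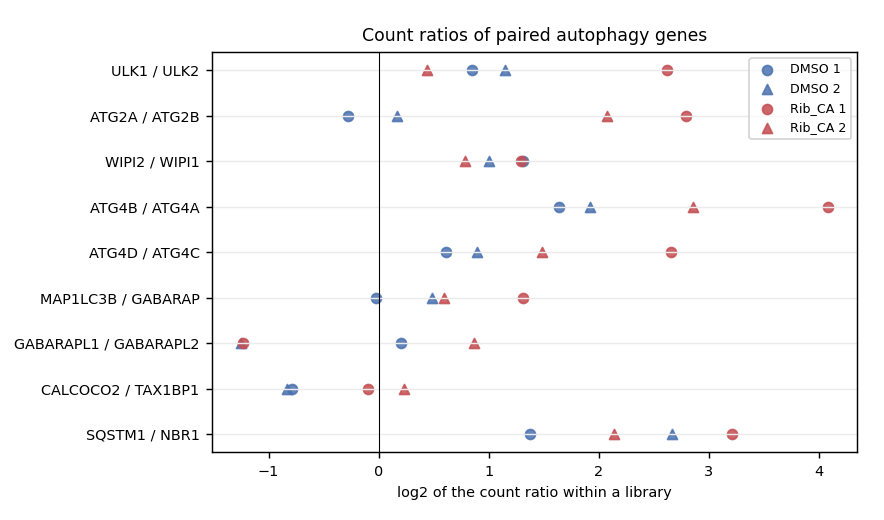
Log2 ratio of the counts of 2 autophagy genes within each library, for 9 pairs chosen with the values known (DMSO blue, Rib_CA red; circles are replicate 1, triangles replicate 2). The ATG2A to ATG2B ratio separates the groups most widely, while the ratios of ULK1 to ULK2, WIPI2 to WIPI1, GABARAPL1 to GABARAPL2 and SQSTM1 to NBR1 overlap.

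All 5 ATG8 genes, whose products are tethered to the membrane and hold receptors there, had fold changes above 0, and none passed. MAP1LC3B, whose protein LC3B is the usual marker of autophagosomes, lay at 64.0 and 79.2 CPM in DMSO and at 162.1 and 130.5 CPM in Rib_CA. Its log2 fold change was 1.03 ± 0.27 (edgeR adjusted p = 0.0681), 0.86 after correction. DESeq2 called it (adjusted p = 0.0176), as did edgeR when libraries were scaled by total counts (adjusted p = 0.0483). MAP1LC3A lay at 1.33 and 1.52 CPM against 4.01 and 5.83 CPM (log2 fold change 1.79 ± 0.45, edgeR adjusted p = 0.0619), the largest upward value of the set, at one of its lowest levels. After correction it was 1.09, and DESeq2 called MAP1LC3A as well (adjusted p = 0.00980). Both LC3 genes had groups that did not overlap. Of the 50-base windows in the longest MAP1LC3B transcript, 6.88% also occur in transcripts of the copy MAP1LC3B2, whose own row held 0.115 to 0.664 CPM. In the other direction, 0 of the 683 windows of the longest MAP1LC3B2 transcript occur in MAP1LC3B transcripts, so the sharing depends on the transcript taken. GABARAP had a log2 fold change of 0.32 ± 0.27, and of -0.062 after correction. A further gene entry on the same strand covers 30.5% of its exonic bases. GABARAPL2 had one of 0.34 ± 0.33, and of -0.038 without Rib_CA 2.

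GABARAPL1, singled out after its values were seen, varied more between replicates than between groups. It lay at 37.5 CPM in DMSO 1 and 10.8 CPM in DMSO 2, and at 12.1 CPM in Rib_CA 1 and 82.8 CPM in Rib_CA 2. Its log2 fold change of 0.97 ± 0.90 (edgeR adjusted p = 0.519) ranged from -1.001 to 2.12 with 1 library left out. DMSO 1 and Rib_CA 2 were thus the high libraries. This order was common in the set: 20 of 38 members were higher in DMSO 1 than in DMSO 2 and higher in Rib_CA 2 than in Rib_CA 1, beside 35.8% of all genes tested.

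Within the summed counts of the 5 ATG8 genes, the share of GABARAP was lower in both Rib_CA libraries, while that of MAP1LC3B and GABARAPL1 swung between replicates. The level of GABARAP itself was not lower, at 65.0 and 56.7 CPM in DMSO and 65.3 and 86.4 CPM in Rib_CA. The summed counts were 6950 and 5731 in DMSO and 10655 and 15108 in Rib_CA. GABARAP made up 32.4% in DMSO 1, with a 95% Wilson interval of 31.4 to 33.6, and 32.6% (31.4 to 33.8) in DMSO 2. It made up 24.0% (23.2 to 24.8) in Rib_CA 1 and 24.6% (23.9 to 25.3) in Rib_CA 2. The group means were 32.5% ± 0.105 and 24.3% ± 0.429 (SD, n = 2), and the groups did not overlap. Each SD rests on 2 values, and that of DMSO is smaller than the counting error, so neither measures the spread between replicates well. MAP1LC3A made up 0.662% and 0.872% in DMSO and 1.47% and 1.66% in Rib_CA, and GABARAPL2 16.2% and 14.8% against 10.5% and 12.9%, again without overlap. The share of MAP1LC3B was 31.9% and 45.5% in DMSO and 59.6% and 37.2% in Rib_CA, and that of GABARAPL1 18.7% and 6.23% in DMSO and 4.45% and 23.6% in Rib_CA, so both overlapped between groups. The shares were compared by their spread alone, since 2 against 2 libraries cannot give a two-sided exact permutation p below 0.33. The intervals cover counting error only, and understate it if both mates of a read pair were counted.

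**Figure D5:**
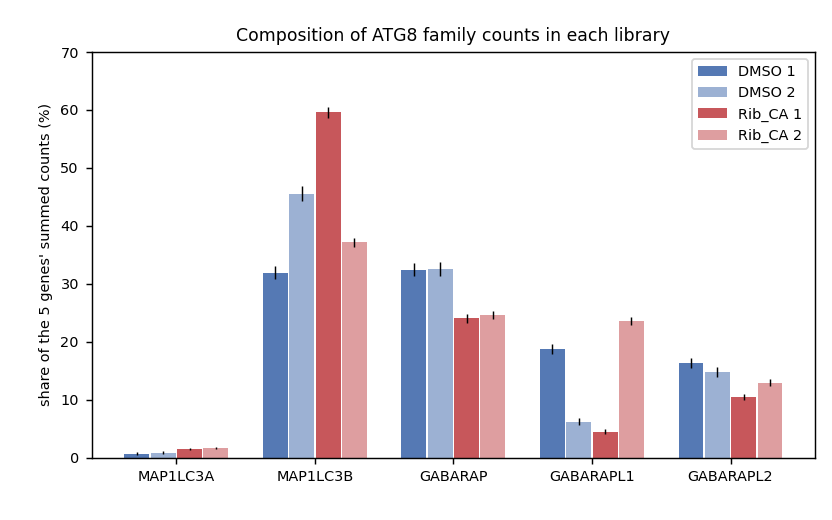
Share of each ATG8 gene in the summed counts of the 5 genes, in percent, per library (bars from 0, with 95% Wilson intervals). GABARAP averages 32.5% in the DMSO bars and 24.3% in the Rib_CA bars, while the MAP1LC3B and GABARAPL1 bars overlap between the groups.

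Cargo receptors did not move as one, and TAX1BP1 was the 1 of 5 called, lower in Rib_CA. SQSTM1 lay at 596.7 and 1017.7 CPM in DMSO and at 1470.0 and 999.5 CPM in Rib_CA, so that the groups overlapped (log2 fold change 0.61 ± 0.38; edgeR adjusted p = 0.331). It shares 20.7% of its exonic bases with MRNIP on the opposite strand. CALCOCO2, which encodes NDP52 and is the paralog of TAX1BP1, lay at 89.5 and 83.6 CPM in DMSO and 44.3 and 64.9 CPM in Rib_CA. It pointed the same way as TAX1BP1 without passing (log2 fold change -0.66 ± 0.29; edgeR adjusted p = 0.190). Counts of CALCOCO2 per count of TAX1BP1 were 0.581 and 0.562 in DMSO and 0.935 and 1.17 in Rib_CA, a mean ratio 1.83-fold higher in Rib_CA with no overlap. OPTN, the optineurin receptor, lay at 92.05 and 97.13 CPM against 122.2 and 179.3 CPM (log2 fold change 0.67 ± 0.29; 0.89 after correction). NBR1 lay at 229.5 and 160.8 CPM against 158.9 and 227.4 CPM, with a log2 fold change of -0.01 ± 0.31. EPG5, which tethers finished autophagosomes to lysosomes, lay at 114.3 and 87.1 CPM in DMSO and at 59.2 and 60.3 CPM in Rib_CA. The log2 fold change of -0.75 ± 0.27 (edgeR adjusted p = 0.127) became -0.08 after correction, and its longest transcript has 12698 bases.

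Promoters were searched for 4 short elements tied to autophagy and stress genes, on both strands of windows from 250 bases before to 50 bases after the start of RefSeq (GRCh38.p14) genes. They were CACGTG, the E-box at the core of the element that TFEB binds, TGATGNAA of ATF4 and C/EBP factors, TGACNNNGC of NRF2, and TGTTTAC of forkhead factors. The table gave 40 windows for 32 of the 38 members, and none for RB1CC1, UVRAG, MAP1LC3A, WDFY3, ATG4D and EPG5. CACGTG was found in 2 of the 40 windows (ATG14 and ATG3) and in 7.26% of all 35116 windows. TGACNNNGC was found in 3 (ATG101, CALCOCO2 and MAP1LC3B) and in 13.3% of all. TGTTTAC was found in 1 (CALCOCO2) and in 3.42% of all, and TGATGNAA in none, beside 3.62% of all. No window of the called genes TAX1BP1 and ATG2B held any of the 4. Stretches of 3 windows, chosen after the search, are shown from base -120 to base 30 on the gene's strand, with matches in capitals. MAP1LC3B (chr16:87392216-87392365, plus strand) holds TGACCAGGC starting 46 bases before the start. ATG14 (chr14:55411801-55411950, minus strand) and ATG3 (chr3:112561933-112562082, minus strand) both hold CACGTG close to the start, ATG3 at 2 places, and their log2 fold changes had opposite signs (0.68 and -0.64).
MAP1LC3B: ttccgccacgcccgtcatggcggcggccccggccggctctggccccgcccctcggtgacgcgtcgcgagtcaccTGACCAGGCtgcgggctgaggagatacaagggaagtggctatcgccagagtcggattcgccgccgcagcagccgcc
ATG14: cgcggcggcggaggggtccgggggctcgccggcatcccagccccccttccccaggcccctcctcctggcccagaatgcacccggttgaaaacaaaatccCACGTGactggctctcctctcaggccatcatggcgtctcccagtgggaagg
ATG3: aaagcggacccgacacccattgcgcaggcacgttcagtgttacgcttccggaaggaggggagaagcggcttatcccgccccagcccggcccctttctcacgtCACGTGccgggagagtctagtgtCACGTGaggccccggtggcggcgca

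Around the core set, 50 further genes of the pathway were listed by role, of which 49 passed the filter on low counts. Of these, 3 were called higher and 1 lower (8.16%, beside 7.13% of all genes). PLEKHM1, an adaptor that links autophagosomes to the fusion machinery, lay at 55.3 and 52.7 CPM in DMSO and at 136.5 and 126.6 CPM in Rib_CA (2.44-fold higher; edgeR adjusted p = 0.0349; 2.05-fold after correction). TECPR1, a tether at the same step, lay at 15.9 and 11.4 CPM against 37.3 and 32.6 CPM (2.57-fold higher; edgeR adjusted p = 0.0488). These were 2 of the 13 fusion genes tested. None of the 13 was called lower, though 4 had fold changes below 0, 2 of them without overlap between groups. FKBP8, a mitochondrial LC3 receptor, lay at 126.4 and 114.0 CPM against 292.2 and 260.0 CPM (2.30-fold higher; edgeR adjusted p = 0.0432), and was 1.42-fold higher after correction. SEC62, a translocon subunit that also acts as a receptor for endoplasmic reticulum, lay at 191.7 and 168.8 CPM against 57.1 and 73.7 CPM (2.76-fold lower; edgeR adjusted p = 0.0326), and was 1.65-fold lower after correction. They were the 2 of 15 organelle receptors called. None of the 11 control genes passed, and none of the 10 phagophore partners did. Of the control genes, 5 had fold changes above 0 and 6 below. An unadjusted edgeR p under 0.05 was found for 3 (27.3%, beside 28.4% of all genes), all lower. They were TBK1 (log2 fold change -1.24 ± 0.31, -0.70 after correction), MITF (-1.08 ± 0.29, -0.56) and PRKAA1 (-0.83 ± 0.25, -0.19). TFEB, the master regulator of lysosomal genes, had 0.73 ± 0.44 at only 2.76 to 6.16 CPM, and MTOR had -0.33 ± 0.26. All 4 calls were lost on leaving out either DMSO library, SEC62 and TECPR1 also with total-count scaling, FKBP8 and TECPR1 with the replicate number as a block, and TECPR1 with limma-voom.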

How the data were processed

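Gene expression was measured by mRNA sequencing of 1.4 µg of total RNA per library, per the labels' protocols. The authors deposited raw counts per gene, without normalisation, for 4 libraries. Per the submitters' processing notes the builds were GRCm38 and mm10, both mouse, although all 20263 row names are human Ensembl IDs, so the build is unsettled. No aligner, counter or strand setting is named in the sources used here. Among counts from 1 to 10, 67.7 to 70.7% were even, as when both mates of a pair are counted. Libraries of a group differed by more than counting noise (chi-square 256.6 and 265.3 times its degrees of freedom).

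The test was edgeR 4.0.16 (R 4.3.3) with filterByExpr (minimum count 10, minimum total 15), TMM scaling, glmQLFit (robust) and glmQLFTest over all 4 libraries, with 2 residual degrees of freedom and Benjamini-Hochberg adjustment over 13667 genes. The script was tested on simulated data, with less spread between libraries than here and larger fold changes than those of the called members. That test does not show how well changes of the present size are found. SEs are the absolute log2 fold change over the root of F. Symbols, gene limits and transcript length and GC content came from a gene name table and GENCODE release 29 (GRCh38). The GC and length correction is a smooth (mgcv 1.9.3, 6 basis functions) of each library's log2 deviations, used as an offset. Alternatives were DESeq2 1.42.0, limma-voom (limma 3.58.1), other scalings and filters, a replicate block, each library left out, and the removal of mitochondrially encoded genes. Values by library are given for members that passed, for the 10 others with the smallest p and for 6 fixed genes, 17 in all, and for further members chosen after their values were seen. A rule fixed alongside these showed promoters only of called members holding a searched motif, which neither TAX1BP1 nor ATG2B did (WDFY3 had no window), and protein sequences were not used here. The members and lists were chosen with earlier results of these data known.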

Additional observations from a re-analysis of the deposited data

How the results depend on the processing

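The calls depend on the libraries and settings used. All genes called numbered 974, and 588 with total-count scaling, 2450 with DESeq2 and 0 after the GC and length correction, where 3396 genes had an unadjusted p under 0.05. They ranged from 173 to 2868 with 1 library left out: 173 without DMSO 1, 409 without DMSO 2, 2868 without Rib_CA 1 and 2761 without Rib_CA 2. Members called numbered 3, and 5 with DESeq2's size factors, 7 without a filter, 6 with a floor of 5 CPM in 2 libraries, 9 with DESeq2, 5 without mitochondrially encoded genes and 0 after the correction; with 1 library left out they ranged from 0 to 13 (0 without DMSO 1, 2 without DMSO 2, 11 without Rib_CA 1 and 13 without Rib_CA 2). The other pathway genes called numbered 4, and 2 with total-count scaling, 2 with the replicate block, 10 with DESeq2, 0 after the correction, and 0 to 15 with 1 library left out. Where a group keeps 1 library, its spread is taken from the other group. The members' median log2 fold change of 0.35 was 0.55 with total-count scaling and ranged from 0.10 (without Rib_CA 2) to 0.46 (without DMSO 1) with 1 library left out. The causes were not tested.

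Signs turned for NBR1 (0.18 with total-count scaling, 0.0098 without mitochondrially encoded genes, 0.28 after the correction, and -0.30 to 0.26 with 1 library left out), for PIK3C3 (0.27) and GABARAP (-0.062) after the correction, and, without Rib_CA 2, for ULK2 (-0.40, up to 1.46 with another library left out), GABARAPL1 (-1.001, up to 2.12), GABARAPL2 (-0.038, up to 0.60), ATG12 (-0.28, up to 0.69) and ATG16L1 (-0.084, up to 0.37). Of the members' other values, 433 kept their direction and side of the threshold, 37 newly passed and 10 lost a call. The replicate block left 3 members called, the same 3 genes, and 947 genes in all. The labels do not say that a number marks a shared culture, and deviations of same-numbered libraries had a correlation of -0.186 across genes. A crossed pairing, chosen after seeing the data, called 8 members and 1991 genes.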
